A study of Mus musculus with 146 samples.

Results

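The 8 meiotic break and crossover genes described here are Spo11, Meiob, Brca2, Dmc1, Hfm1, Msh4, Msh5 and Mlh3. They were taken by symbol from the 52605 gene symbols quantified in each library, and their levels were read in all but 1 of the single germ cells sequenced from newborn mouse ovary. The left-out library had no reads of Ddx4, the germ cell gene also called Vasa, and the rule for the cells asked for at least 1 TPM of it. TPM is a level per transcript length, scaled so that all genes and the added spike-in RNA of a cell together reach the same total. To follow germ cells from cysts to primordial follicles, the study picked cells by mouth pipette from ovaries (n = 5) of 1 litter of C57/BL6J females, aged D0.5, without any treatment or genotype group. The deposit holds 146 Smart-seq2 libraries with spike-in RNA. Among them, 7 pairs of libraries had a Pearson correlation of log2(TPM + 1) from 0.984 to 0.993 over 11036 genes, while the highest of any other pair was 0.777. The labels give no reason for these repeats. After this was seen in the data, each pair was counted as 1 cell at its mean, and all 7 such cells were in cluster 2. Because no label ties a cell to an animal, all cells were treated as 1 sample, and every value below is a description without a test. Cells were compared between 3 clusters of 19, 86 and 33 cells that were rebuilt from 20 oocyte and meiosis genes, none of which is among the 8. The study names 19 of the 20 in its account of its own clusters, and Taf4b, a transcription factor gene it mentions elsewhere, was added here.

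In meiotic prophase the topoisomerase-like protein SPO11 breaks DNA on both strands. The ends are cut back and coated by single-strand binding proteins, and BRCA2 loads recombinases such as DMC1, which search for the homologous chromosome. ZMM proteins such as HFM1, MSH4 and MSH5 then stabilise a few of the joined molecules, and a nuclease that holds MLH3 cuts these into crossovers. In the mouse ovary this work belongs to fetal life, and oocytes enter follicles at the diplotene arrest.

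The depth of the cells kept, as reads assigned to genes, had a median of 9509197 and a range of 4103144 to 17440741. In cluster 1 the clustering genes Sycp2 and Taf7l, which are meiotic, had mean levels of 495 and 1420 TPM, against 62.4 and 146 TPM in cluster 3, and the zona pellucida gene Zp3 went from 0.0943 to 557 TPM. These genes made the clusters, so their levels only orient the reader, and the clusters were not formed independently of meiotic RNA. Ddx4 was at least 7.49 TPM in every cell kept and Dazl was above 1 TPM in all of these cells, while Foxl2 of pregranulosa cells, by which the study removed libraries after quantitative PCR, was above 1 TPM in 4 cells. The summed level of 18 markers of pregranulosa, stroma, blood and endothelium had medians of 35.03 TPM in cluster 1, 43.5 TPM in cluster 2 and 21.3 TPM in cluster 3, and reached 165085 TPM in 1 cell of cluster 1, nearly all of it haemoglobin.

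Of the 8 genes, Spo11, Meiob, Dmc1 and Hfm1 had the lowest ratios of cluster 3 over 1, and the loader Brca2 and the resolution gene Mlh3 differed least. With clusters from variable genes, however, Msh5 at a log2 ratio of -0.75 differed less than Mlh3 at -0.79. Between clusters 2 and 3 the smallest differences were those of Msh5 and Brca2, and Mlh3 was lower by a log2 ratio of -1.04. Between clusters 1 and 3, mean TPM with 1 TPM added was at least 1.5-fold lower for 7 of the 8 genes and higher for none. Of 11757 coding genes with a mean of at least 1 TPM, 36% were lower by this margin and 27.4% were higher. Cluster 2 against cluster 1 gave 7 of 8 lower and none higher, beside 21.7% lower and 25.1% higher among all genes, and cluster 3 against cluster 2 gave 6 of 8 lower and none higher, beside 29.8% and 16.7%. The median log2 ratio of the 8 genes, with 1 TPM added to each mean, was -2.89 for cluster 3 over 1, -1.44 for 2 over 1 and -1.39 for 3 over 2. The medians over all 11757 genes were -0.17, 0.00 and -0.21. Division by the spike-in level of each cell moved the background to 19.4% lower and 44.97% higher for cluster 3 over 1, and 6 of the 8 genes were then lower. For cluster 3 over 2 with this scaling, Spo11, Dmc1, Hfm1 and Meiob stayed at least 1.5-fold lower. Msh4 at -0.25 and Mlh3 at -0.16 fell short of this margin, and Brca2 at 0.79 was higher by it, beside a median of 0.60 over all genes. The 25 cells at 1000 TPM or more of markers of other cell types were then left out, a limit set after seeing the data. Cluster 3 was at least 1.5-fold below cluster 1 for 8 of the 8 genes in this setting, beside 36.3% of all genes. With clusters rebuilt without Taf4b, also tried after seeing the data, 6 of 8 were lower, beside 35.5% of all genes, and Brca2 at -0.50 and Mlh3 at -0.40 were not past 1.5-fold. With the repeat libraries counted separately, 7 of 8 were lower, beside 36% of all genes, and the medians were -2.89, -1.40 and -1.42. With clusters built without the second library of each pair, of 19, 87 and 32 cells, 7 of 8 were lower, beside 36.5%, and the medians were -2.85, -1.46 and -1.34.

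**Figure D1:**
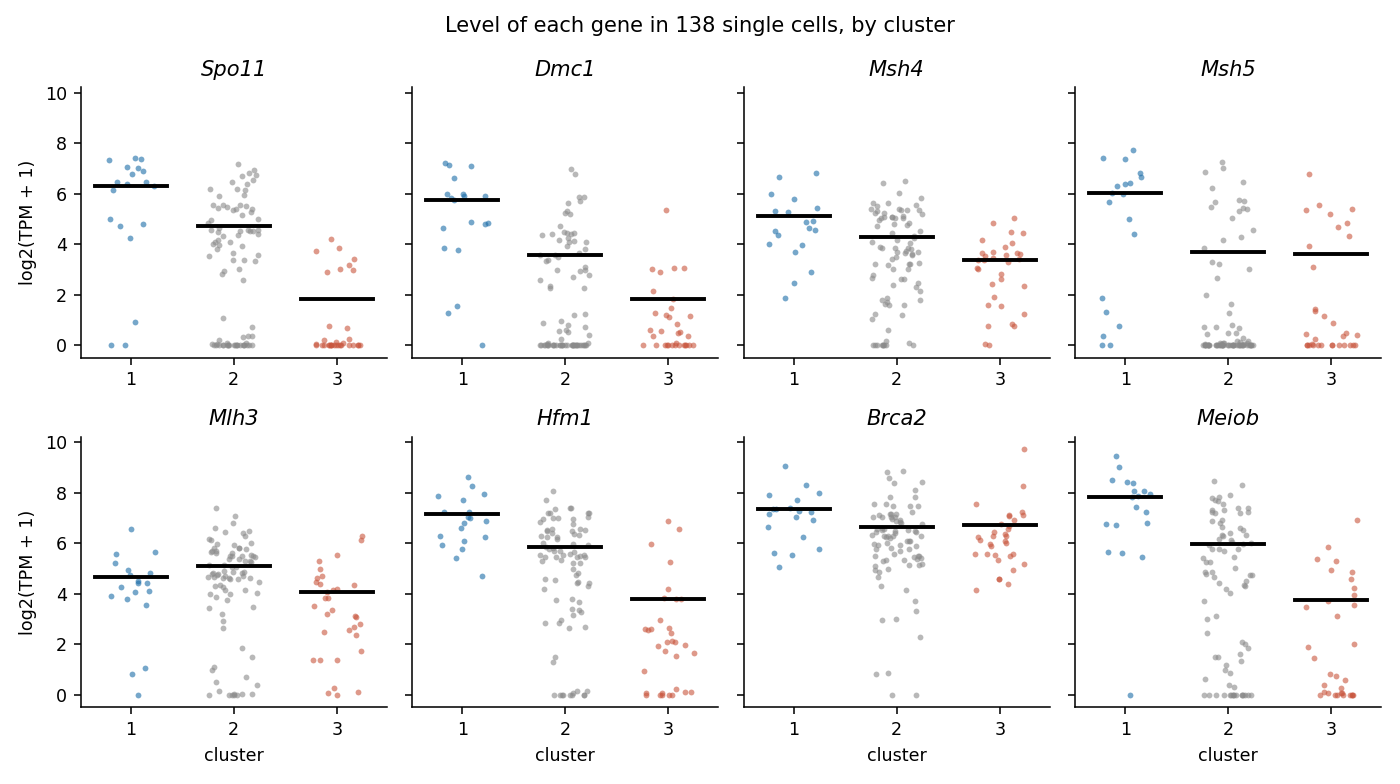
Level of each gene in each cell as log2(TPM + 1) on the vertical axis, by cluster (19, 86 and 33 cells) on the horizontal axis, with black bars at the log2 of the mean TPM plus 1. The clouds of Spo11, Dmc1, Hfm1 and Meiob move down from cluster 1 to cluster 3, with many cells at 0 for Spo11 and Dmc1. The clouds of Brca2 overlap in range, with medians of 149, 76.1 and 68.6 TPM.

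Spo11 (ENSMUSG00000005883.15; mm10 chromosome 2, 172977700 to 172993576, + strand) encodes the catalytic subunit of the break machinery. In cluster 1 its level ran from 0 through a median of 81.7 to 171 TPM, in cluster 2 from 0 through 14.4 to 144.6 TPM, and in cluster 3 from 0 through 0 to 17.6 TPM. The highest cell of cluster 3 was thus below the median of cluster 1, though 2 cells of cluster 1 were also at 0 and the ranges overlapped. Mean levels were 78.2 ± 57.7, 25.3 ± 32.8 and 2.53 ± 4.78 TPM (SD over cells), a log2 ratio of -4.49 between clusters 3 and 1. Among the 11757 coding genes, 34 had a lower ratio. Spo11 reached 0.1 TPM, the detection limit of the study, in 17 of 19 cells of cluster 1 (89.5%, exact Clopper-Pearson 95% interval 66.9 to 98.7%) and in 13 of 33 cells of cluster 3 (39.4%, 22.9 to 57.9%). Every cell was then thinned to 4103143 reads, the depth of the shallowest cell kept rounded down. At least 1 read of Spo11 remained in 17 of 19 cells of cluster 1 and 11 of 33 cells of cluster 3. These intervals cover counting error only.

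Meiob (ENSMUSG00000024155.8; chromosome 17, 24804289 to 24839788, + strand) encodes a meiosis-specific relative of the single-strand binding protein RPA1. Its level ran from 0 through 225 to 695 TPM in cluster 1, from 0 through 27.3 to 349 TPM in cluster 2, and from 0 through 0.779 to 120 TPM in cluster 3. It was the most abundant of the 8 genes in cluster 1, and no cell of cluster 3 reached the median of cluster 1. Means of 225 ± 176, 61.3 ± 78.04 and 12.7 ± 24.1 TPM gave a log2 ratio of -4.04 for cluster 3 over 1, with 49 coding genes lower. The best cell of cluster 3 held 28.6% of the summed TPM of Meiob in that cluster.

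Dmc1 (ENSMUSG00000022429.11; chromosome 15, 79561497 to 79605109, - strand) encodes the recombinase used only in meiosis. Its level was 0 at the lowest, 52.7 at the median and 147 TPM at the highest in cluster 1, then 0, 0.817 and 123.5 TPM in cluster 2, and 0, 0.387 and 40.5 TPM in cluster 3. Unlike Spo11 and Meiob, its median was already under 1 TPM in cluster 2, while the highest cell there came near the highest of cluster 1. Mean levels were 53.02 ± 46.7, 10.98 ± 21.2 and 2.57 ± 7.18 TPM, with log2 ratios of -3.92 for cluster 3 over 1 and -2.17 for 2 over 1. In cluster 3 a cell at 40.5 TPM carried 47.7% of the Dmc1 signal, and without it the mean was 1.39 TPM. A microRNA gene model inside Dmc1 on the same strand, Gm27903, was listed at a mean of 7.46 TPM. Its reads cannot be told apart from those of Dmc1 by position alone.

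Brca2 (ENSMUSG00000041147.10; chromosome 5, 150522630 to 150570329, + strand) encodes the mediator that loads recombinases onto the coated ends, in mitotic as well as meiotic cells. Its level ran from 32.5 through 149 to 533 TPM in cluster 1, from 0 through 76.1 to 469 TPM in cluster 2, and from 16.9 through 68.6 to 846 TPM in cluster 3. It was detected in 98.6% of the cells kept, all but 2 and more than any other of the 8 genes. The ranges of the clusters overlapped, but only 4 of 33 cells of cluster 3 lay above the median of cluster 1. The second highest cell of cluster 3 was at 304 TPM. With means of 163 ± 117.1, 98.5 ± 94.5 and 104.6 ± 145.01 TPM, the log2 ratio was -0.63 for cluster 3 over 1, -0.72 for 2 over 1 and 0.09 for 3 over 2. Whether the first of these passed 1.5-fold turned on single cells, since 2 of them, left out in turn, each took it short. It was -0.99 without the cell of cluster 3 at 846 TPM and -0.44 without the cell of cluster 1 at 533 TPM, which also took the ratio of 2 over 1 to -0.52. In CPM, the estimated reads of a gene per gene reads of its cell without regard to length, it was -0.45.

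The start regions of the recombinase and its loader are shown because these genes work in 1 step and had unlike values in the clusters. Promoter windows from RefSeq (GRCm38.p6, the build also called mm10) were found for 6 of the 8 genes, all but Spo11 and Meiob. The 250 bases upstream of the RefSeq start are printed 5′ to 3′ on the strand of the gene, for Dmc1 at chr15:79605110-79605359 (- strand) and for Brca2 at chr5:150522371-150522620 (+ strand), with matches to any motif searched in capitals.
Dmc1: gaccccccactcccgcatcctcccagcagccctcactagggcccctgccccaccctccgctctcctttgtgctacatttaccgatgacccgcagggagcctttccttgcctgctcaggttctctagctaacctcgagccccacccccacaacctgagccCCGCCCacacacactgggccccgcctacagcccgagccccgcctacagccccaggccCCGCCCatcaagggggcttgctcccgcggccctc
Brca2: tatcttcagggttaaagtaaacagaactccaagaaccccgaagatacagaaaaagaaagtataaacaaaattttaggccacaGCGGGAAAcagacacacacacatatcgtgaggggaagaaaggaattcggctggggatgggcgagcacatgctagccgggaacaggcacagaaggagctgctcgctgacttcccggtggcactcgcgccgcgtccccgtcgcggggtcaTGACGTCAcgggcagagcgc
The motifs were searched on both strands. They were the E2F letters TTTCCCGC and TTTGGCGC, the cyclic AMP response element TGACGTCA, the E-box CACGTG, the GC box GGGCGG and the letters CNCCTCAG reported for STRA8-type sites. In the Dmc1 window the capitals mark 2 GC boxes, 91 and 34 bases before the start. In the Brca2 window they mark 1 E2F match 168 bases and 1 cyclic AMP response element 20 bases before the start. Of 32851 windows of the same length, 32.7% held the GC box, 1.3% an E2F match, 1.55% the cyclic AMP response element, 6.02% the E-box and 6.42% the STRA8-type letters. Msh5 held an E2F match, 2 GC boxes and a STRA8-type match, Hfm1 held a STRA8-type match, and the windows of Msh4 and Mlh3 held none of these letters. The GC content was 75.6% for Hfm1, 68.8% for Dmc1, 67.2% for Msh5, 54.4% for Brca2, 48.8% for Mlh3 and 43.6% for Msh4, beside a median of 52.4% over all windows. The RefSeq starts of Hfm1, Msh4 and Msh5 lie inside the GENCODE M21 gene, so their windows are not printed. A match is a description of letters and not evidence of a bound factor.

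Hfm1 (ENSMUSG00000043410.16; chromosome 5, 106840192 to 106926321, - strand) encodes a DNA helicase needed for most crossovers. Its level ran from 25.0 through 118.7 to 396 TPM in cluster 1, from 0 through 43.96 to 272 TPM in cluster 2, and from 0 through 3.24 to 116.96 TPM in cluster 3. No cell of cluster 1 lacked Hfm1, and the highest cell of cluster 3 came just under the median of cluster 1. Means of 141.05 ± 98.1, 56.9 ± 55.5 and 12.8 ± 27.1 TPM gave log2 ratios of -3.36 for cluster 3 over 1, -1.29 for 2 over 1 and -2.07 for 3 over 2. A microRNA gene model inside Hfm1 on the same strand, Gm27527, was listed at a mean of 57.8 TPM, and its reads cannot be told apart from those of Hfm1 by position alone.

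Msh4 (ENSMUSG00000005493.15; chromosome 3, 153857149 to 153906138, - strand) and Msh5 (ENSMUSG00000007035.15; chromosome 17, 35028605 to 35046745, - strand) encode the subunits of MutSγ, a clamp on joined molecules. Msh4 ran from 2.72 through 23.8 to 111.3 TPM in cluster 1, from 0 through 11.98 to 89.3 TPM in cluster 2 and from 0 through 9.29 to 32.2 TPM in cluster 3. Msh5 ran from 0 through 61.9 to 210 TPM in cluster 1, from 0 through 0 to 152 TPM in cluster 2 and from 0 through 0.342 to 108.999 TPM in cluster 3. Msh4 had a lower median in each later cluster and was detected in 31 of 33 cells of cluster 3, while the median cell of cluster 2 had no Msh5 and cluster 3 had nearly the same mean.

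The means of Msh4 were 34.1 ± 29.9, 18.6 ± 19.3 and 9.33 ± 7.85 TPM, with log2 ratios of -1.77 for cluster 3 over 1 and -0.92 for 3 over 2. The second of these was short of 1.5-fold with spike-in scaling at -0.25, with means of log2 values at -0.52 and with clusters from variable genes at -0.46. For Msh5 they were 64.9 ± 64.1, 11.9 ± 28.9 and 11.3 ± 22.6 TPM, with log2 ratios of -2.43 for 3 over 1, -2.36 for 2 over 1 and -0.07 for 3 over 2. On the CPM scale the last of these was -0.67, past 1.5-fold, and with clusters from variable genes it was 0.78, while 3 over 1 was then -0.75. Detection of Msh5 was 17 of 19 cells in cluster 1 (89.5%, interval 66.9 to 98.7%), 35 of 86 in cluster 2 (40.7%, 30.2 to 51.8%) and 19 of 33 in cluster 3 (57.6%, 39.2 to 74.5%). Both subunits reached 1 TPM in 15 of 19, 22 of 86 and 13 of 33 cells.

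Mlh3 (ENSMUSG00000021245.15; chromosome 12, 85234520 to 85270599, - strand) encodes an endonuclease subunit that acts last. Its level ran from 0 through 20.4 to 94.6 TPM in cluster 1, from 0 through 26.6 to 167 TPM in cluster 2, and from 0 through 9.17 to 78.2 TPM in cluster 3. It was the only one of the 8 genes with its highest mean in cluster 2, though with clusters from variable genes its log2 ratio of cluster 2 over 1 was -0.05, and the ranges overlapped in all clusters. Means were 24.3 ± 21.8, 33.7 ± 31.2 and 15.9 ± 18.7 TPM, with log2 ratios of 0.46 for cluster 2 over 1, -1.04 for 3 over 2 and -0.58 for 3 over 1. The last value sits just short of 1.5-fold, a log2 ratio of 0.585 in size, and leaving out any of 24 single cells moved it past that limit. Without the cell of cluster 1 at 94.6 TPM it was -0.34, and the ratio of cluster 2 over 1 was then 0.70.

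Single cells differed in how many of the 8 genes they held. The number of the 8 genes at 1 TPM or more had a median of 8 for cells of cluster 1, 6 for cluster 2 and 5 for cluster 3. All 8 were present in 12 of 19 cells of cluster 1, 7 of 86 of cluster 2 and 0 of 33 of cluster 3. The number of all gene symbols with at least 1 read had medians of 12424, 12066 and 14506 in clusters 1, 2 and 3, so it was highest where fewest of the 8 genes were present. At a limit of 10 TPM the medians were 7, 5 and 3 genes, and no cell of cluster 3 held more than 5. Which gene was still high in cluster 3 varied. Above the median of cluster 1 lay 8 of 33 cells for Mlh3, 4 for Brca2, 2 for Msh4, 1 for Msh5 and 0 for Spo11, Dmc1, Hfm1 and Meiob.

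The cells were also placed in order along the first principal component of the 20 clustering genes and split into 5 bins of 27 or 28 cells. Hfm1 had a lower mean in each later bin, with 128.8, 83.7, 44.2, 21.3 and 8.74 TPM, but along the first component of variable genes its last bin, at 13.7 TPM, was above the fourth, at 9.79 TPM. Spo11 was lower in each later bin in both orders, with 66.5, 35.1, 20.8, 8.57 and 3.09 TPM, and so was Meiob, which went from 191.9 to 8.45 TPM. Dmc1 was 41.6 TPM in the first bin, 15.5 TPM in the second and 3.03 TPM in the last. Msh4 had means of 31.3, 24.4, 10.6, 17.3 and 8.61 TPM, so the fourth bin was above the third, and Msh5 went from 45.9 TPM in the first bin to 7.36 TPM in the third and 13.4 TPM in the last. Mlh3 stayed between 27.3 and 35.2 TPM through the first 4 bins and was 14.4 TPM in the last. Brca2 was highest in the first bin at 134.8 TPM and lowest in the last at 69.5 TPM, and the fourth bin, at 131.9 TPM, holds the cell at 846 TPM, without which its mean was 104.5 TPM. Along the order from variable genes Brca2 was 140.6 TPM in the first bin and 139.7 TPM in the last, and Mlh3 was highest in the second at 34.96 TPM.

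**Figure D2:**
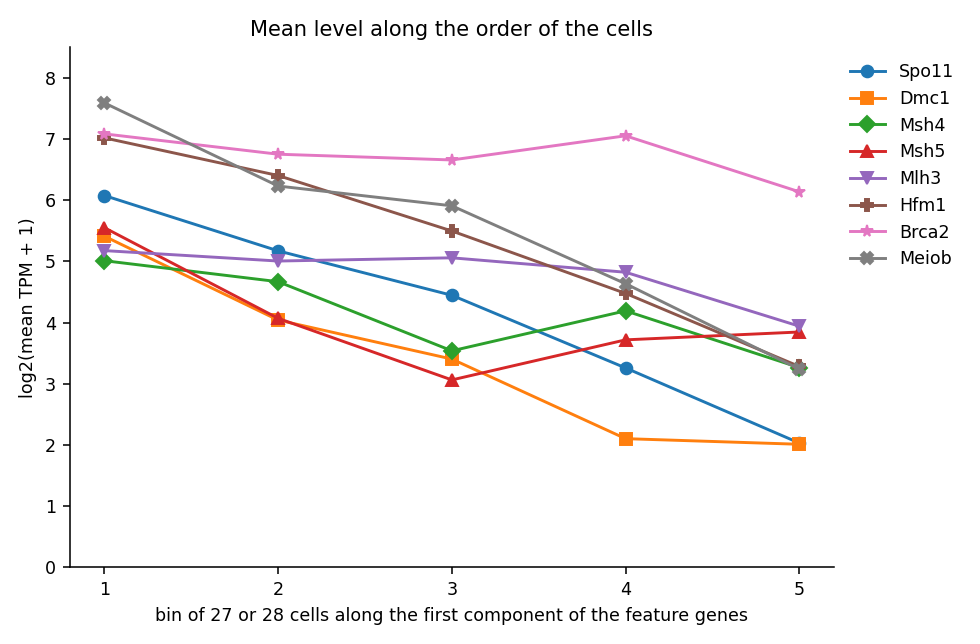
Log2 of the mean TPM plus 1 of each gene (vertical axis) in 5 bins of 27 or 28 cells along the order of the cells (horizontal axis). Spo11, Hfm1 and Meiob slope down throughout, Mlh3 drops in the last bin, and Brca2 stays above 6 on this scale.

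Spearman’s rank correlation of level with the order was -0.71 for Hfm1, -0.58 for Meiob, -0.57 for Spo11 and -0.44 for Dmc1 over the kept cells of 1 litter, in which the levels of a cell share its depth and RNA composition. Inside cluster 2 alone, with 86 cells, it was -0.60, -0.42, -0.37 and -0.25. The other genes had values from -0.33 to -0.19 over all cells. Correlations as weak as these last ones, or as that of Dmc1 inside cluster 2, are no finding in sparse counts. With the number of gene reads, the rank correlation lay between -0.25 for Brca2 and 0.08 for Dmc1. With the share of mitochondrial reads, which had medians of 5.22, 6.20 and 7.74% in the clusters, it reached -0.38 for Spo11, and the part of this share in the values of Spo11 was not tested. Among the 28 pairs of genes, the rank correlation was highest for Spo11 with Meiob at 0.50, Hfm1 with Meiob at 0.48 and Spo11 with Hfm1 at 0.45, while Msh4 and Msh5 had 0.06. Inside cluster 2 these 3 pairs had only 0.30, 0.32 and 0.30, and Msh4 with Msh5 had 0.01, which in sparse counts is no finding.

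Genes whose proteins act beside these proteins were compared in pairs. Meiob and its binding partner Spata22 were both lower by at least 1.5-fold at each step, with steps of unlike size. Spata22 had means of 123.5, 77.97 and 5.20 TPM, with a log2 ratio of -0.66 for cluster 2 over 1 and -3.67 for 3 over 2, beside -1.86 and -2.18 for Meiob. Brca2 over Palb2, which tethers BRCA2 to BRCA1, had ratios of mean TPM of 2.75, 2.98 and 3.12 in clusters 1, 2 and 3. In CPM these ratios were 3.31, 3.77 and 4.22. Without its cell at 846 TPM, the mean of Brca2 in cluster 3 was 81.4 TPM, beside 33.6 TPM for Palb2. The rank correlation of the pair was 0.15 over all cells and 0.05 inside cluster 2, which in sparse counts is no finding.

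**Figure D3:**
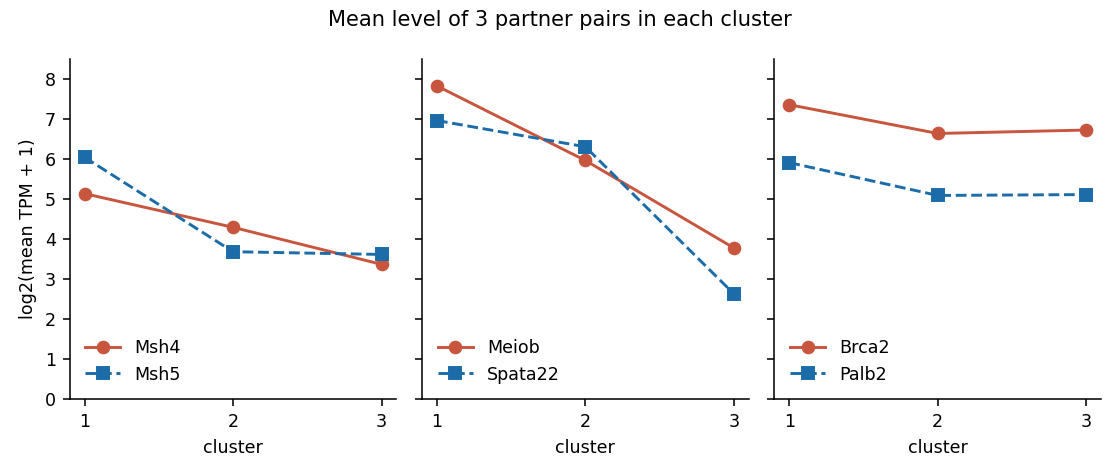
Log2 of the mean TPM plus 1 (vertical axis) of 3 pairs of partner genes in clusters 1 to 3 (horizontal axis), with circles for the gene named first and squares for the gene named second. Msh5 is low from cluster 2 on, and Meiob and Spata22 are both low in cluster 3. The means of Brca2 and Palb2 are both highest in cluster 1 and change little between clusters 2 and 3.

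Other genes of the pathway were counted by role from a list of 57, of which 53 matched a symbol and all 53 had a mean of at least 1 TPM. Between clusters 1 and 3, 31 of them were at least 1.5-fold lower and 9 higher, beside the 36% and 27.4% of all coding genes, and their median log2 ratio was -0.79. Crossover designation held 8 of 8 genes lower, with a median of -1.90, and break formation held 5 of 7 lower and 1 higher, with -1.67. Strand exchange was mixed, with 12 of 24 lower and 4 higher and a median of -0.61. Crossover resolution had 4 of 6 lower and 2 higher, and the genes that unwind joined molecules into non-crossovers had 2 of 8 lower and 2 higher, with a median of 0.00.

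The 3 genes of the list with the lowest ratios were Spata22 at -4.33, the cyclin-like crossover gene Cntd1 at -3.47 and the SUMO ligase gene Rnf212 at -2.85. At the other end stood Sfr1, whose protein assists strand exchange, at 2.17, with means of 525, 886 and 2372 TPM. Recql4, a DNA helicase gene, had 1.53 and the recombination repair gene Xrcc3 had 1.51. Cntd1 and Rnf212 stand beside Hfm1 at -3.36. Of related chromosome genes, 4 of 7 of the synaptonemal complex and 4 of 4 tested of the cohesin and HORMA list were lower, with medians of -1.01 and -2.29. Of the general mismatch repair genes 2 of 3 were lower and 1 higher, with a median of -1.18.

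**Figure D4:**
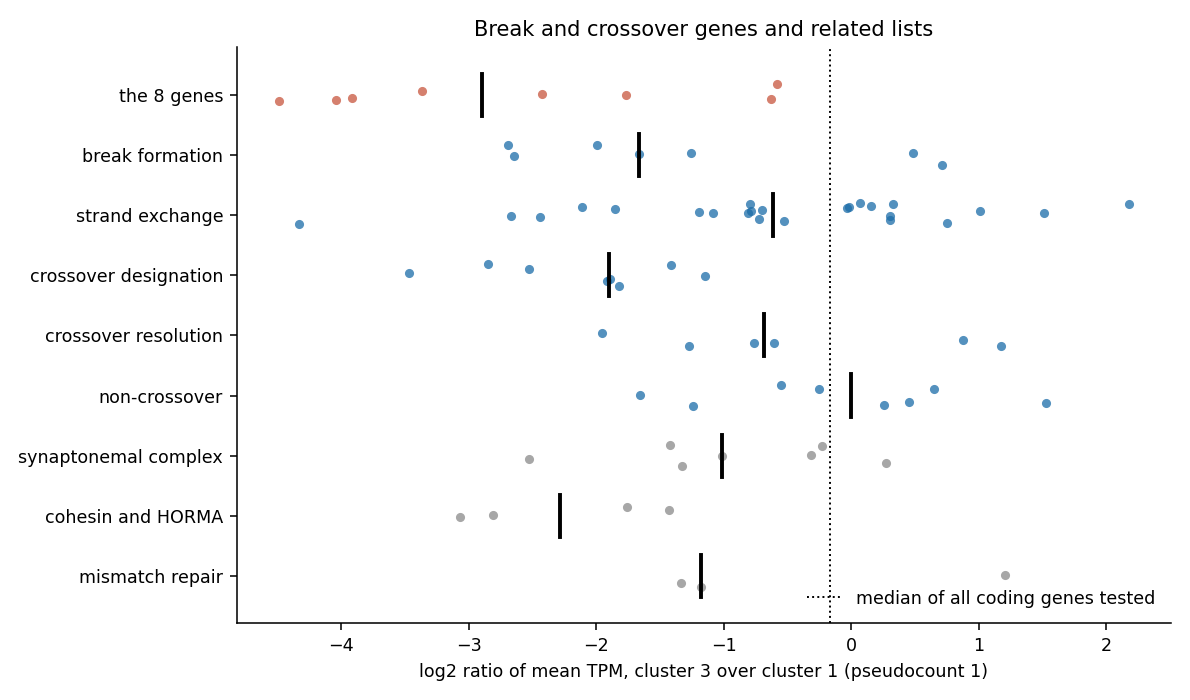
Log2 ratio of mean TPM of cluster 3 over cluster 1 (horizontal axis, pseudocount 1) for each gene of the 8, of the pathway list by role and of related lists (vertical axis), with black bars at list medians and a dotted line at the median of all coding genes, -0.17. All 8 genes and all crossover designation genes lie left of the line.

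The 8 genes were also compared in level. In cluster 1 the order by mean TPM was Meiob, Brca2, Hfm1, Spo11, Msh5, Dmc1, Msh4 and Mlh3, and each step between neighbours was smaller than the larger of their SDs over cells. This order depends on the effective length that the quantification gave each gene, which is shorter than the transcript because a fragment cannot start near its end. From the reads and TPM of a gene and the spike-ins of the same cell, the effective length behind each TPM was recovered in cells with at least 10 reads. For spike-ins of 1000 bases or more it was below the full length by a median of 270.2 bases, and the shares below are of the full length of a transcript. For Meiob it was narrow, with a median of 1517 bases or 85.5% of its longest coding transcript in GENCODE M21. Brca2 had a median of 2357 bases, 22.0% of a longest coding transcript of 10724 bases, and in 91.8% of the cells the effective length was below 50% of it. Msh5 had 43.7%, with 32 of 53 cells below 50%, and Hfm1 had 56.9%. For Spo11 it was above the longest coding transcript in 29 of 83 cells, where a retained-intron model of 3619 bases is annotated.

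In reads per kilobase of the longest coding transcript, scaled to the same total of gene reads (RPKM), Brca2 had a mean of 32.1 in cluster 1 and ranked 5 of 8, while by mean TPM it ranked 2 of 8 there. Over all cells pooled, Brca2 ranked 4 of 8 with an RPKM of 22.6 and first by TPM with 108.7. In cluster 3 alone it was first on both scales, with an RPKM of 23.5 and Meiob next at 10.4. Meiob was first in RPKM both in cluster 1 and over all cells, and Msh5 ranked 6 of 8 in cluster 1 and last over all cells. In Msh5 the recovered effective length also differed between clusters, with medians of 1261, 1437 and 607 bases in 14, 25 and 14 cells, beside the different ratio on the CPM scale. An antisense gene model, Gm42529, overlaps Brca2, and this protocol does not mark the strand of a read.

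**Figure D5:**
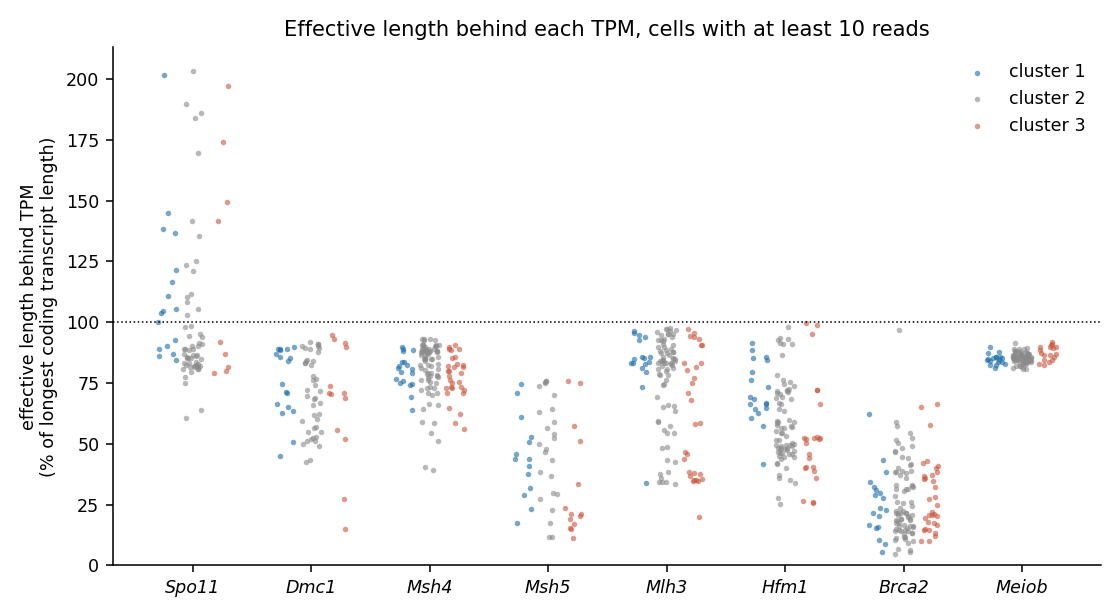
Effective length behind each TPM as a percentage of the full length of the longest coding transcript (vertical axis, dotted line at 100%) for each gene (horizontal axis) in cells with at least 10 reads, coloured by cluster. Brca2 lies mostly under 50%, Meiob forms a narrow band near its median of 85.5%, and Spo11 extends above 100%.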

How the data were processed

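RNA of single germ cells was sequenced by Smart-seq2 in 146 libraries. The authors quantified reads with Salmon (mm10, spike-ins added) and deposited, per gene symbol, TPM, the estimated count of reads, and the gene length and effective length that the file headers name. The annotation release is not given in the sources used here. Gene symbols were looked up in GENCODE M21 and RefSeq, which left 24295 unmatched and gave 19780 coding genes. Estimated counts were rounded for thinning and used without rounding for depth, CPM and recovered effective lengths. After seeing the data, 7 pairs of libraries with a Pearson correlation above 0.95 were averaged and counted as 1 cell each. The clusters were built on all libraries.

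Clusters were rebuilt from TPM in Seurat 5.3.0 (R 4.3.3) on 20 genes (19 named by the study, and Taf4b), with 10 components, 20 neighbours and a resolution of 0.2, and differ from those of the study in their numbers of cells. Means, log2 ratios (pseudocount 1), Clopper-Pearson intervals and rank correlations came from SciPy 1.17.1, NumPy 2.4.6 and pandas 2.3.3 under Python 3.11.15. Only the log2 ratio of cluster 3 over 1 was checked on simulated data. That check missed its limit at first and passed after more draws were pooled, with the ratio code unchanged. Members and lists were chosen with earlier results of these data known. Named are the 8 genes, their partners, the 3 highest and 3 lowest of the pathway list by log2 ratio of cluster 3 over 1, and for each gene the 2 coding genes with the highest rank correlation. Promoter motifs and the other genes named were chosen outside this rule. The list genes Top6bl, Brme1, Shoc1 and Spo16 were not analysed here. Alternatives were CPM, spike-in scaling, means of logs, a pseudocount of 0.1, other clusters, other cells, each cell left out and, added after seeing the data, clusters without Taf4b, repeats counted separately or left out of the clustering, and cells high in other cell types' markers left out. Some partner and similar genes are not reported here.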

Additional observations from a re-analysis of the deposited data

Results flagged for a closer look

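The library left out for want of Ddx4 entered no mean of the report and no ratio but those of the setting without a Ddx4 limit, although it was among the cells clustered. It held more than the 3 reads that a count of 0 allows for 5 of the 8 genes. The levels were 16.8 TPM for Msh4, 36.8 TPM for Msh5, 9.05 TPM for Mlh3, 52.5 TPM for Hfm1 and 152 TPM for Brca2. Spo11 and Dmc1 had 0 reads and Meiob had 1. The library had 1408459 gene reads, fewer than any cell kept. Markers of other cell types were mixed. Of 6 stromal markers, the collagen gene Col1a2 was at 222 TPM, Pdgfra at 11.5 TPM and Dcn at 0.553 TPM, while the collagen genes Col1a1 and Col3a1 and Lum were at 0. Of 6 pregranulosa markers, the ligand gene Kitl was at 82.4 TPM, Wnt4 at 2.32 TPM, Wnt6 at 1.08 TPM and Fst at 0.272 TPM, while Foxl2 and Amhr2 were at 0. Of the germ cell genes, Tdrd9 was at 24.5 TPM, Dazl at 0.221 TPM and Tdrd1 at 0.14 TPM, while Ddx4, Dppa3 and Mael were at 0. Where the reads of the 5 genes came from was not tested.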

How the results depend on the processing

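Over 9 alternative settings, the number of the 8 genes lower in cluster 3 than in cluster 1 by at least 1.5-fold lay between 6 and 8, and the medians of the 3 comparisons kept their sign and stayed past 1.5-fold. The median for cluster 3 over 1 ranged from -3.40 with means of log2 values to -2.04 with clusters from variable genes, that for 2 over 1 from -2.12 with means of log2 values to -1.20 with Ward clusters, and that for 3 over 2 from -1.57 with a pseudocount of 0.1 to -0.65 with clusters from variable genes, with -0.66 for spike-in scaling. Each cell left out in turn gave 6 to 8 genes and medians of -3.25 to -2.77 for 3 over 1, -1.50 to -1.34 for 2 over 1 and -1.52 to -1.30 for 3 over 2. Of 72 single-gene ratios of cluster 3 over 1, 64 stayed on their side of 1.5-fold, and the others were those of Mlh3 and Brca2. Brca2 was -0.33 with spike-in scaling, -0.41 with Ward clusters and -0.04 with clusters from variable genes. Mlh3 was 0.03 with spike-in scaling, of the opposite sign to -0.58, and -0.86 with CPM, -0.80 with means of log2 values, -0.61 with a pseudocount of 0.1 and -0.79 with clusters from variable genes. Msh4 in cluster 3 over 2 was -0.25 with spike-in scaling, -0.52 with means of log2 values and -0.46 with clusters from variable genes. Dmc1 in cluster 3 over 2 was -1.75, and -0.56 with clusters from variable genes, short of 1.5-fold. Clusters from variable genes moved Msh5 from -2.43 to -0.75 for 3 over 1, from -2.36 to -1.53 for 2 over 1 and from -0.07 to 0.78 for 3 over 2. With spike-in scaling, cluster 3 over 2 was 0.79 for Brca2 and -0.16 for Mlh3. Spike-in scaling moved the median of all genes for cluster 3 over 1 from -0.17 to 0.44, and CPM moved it to -0.01. At 1 TPM in place of 0.1 TPM, Msh5 was found in 37.7% of cells in place of 51.4% and Dmc1 in 51.4% in place of 63.04%. The cause of these differences was not tested. No paired analysis was possible because the cells form 1 sample without replicate numbers, and no animal is known from which the precision of a mean could be had.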

Other observations

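The most similar coding genes of the 8 genes were those with the highest Spearman rank correlation over the cells kept, among 7138 or 7139 genes at 1 TPM or more in at least 50% of cells. Maoa, the gene of monoamine oxidase A, was among the first pair for Hfm1 (0.66), Meiob (0.61) and Spo11 (0.57), and averaged 170.4 TPM in cluster 1, 44.95 TPM in cluster 2 and 1.47 TPM in cluster 3. Ccnb3, a cyclin gene of meiosis, came first for Meiob at 0.66, with 548, 48.2 and 2.11 TPM. Tsc22d3, a gene induced by glucocorticoids, stood second for Hfm1 at 0.63, with 464, 263 and 47.3 TPM. Hormad1, of the chromosome axis, led for Spo11 at 0.61, with 1519.6, 487 and 181 TPM. For Dmc1 the closest were Maged1 at 0.51 and Rbm38 at 0.49. Further closest genes were Taf6 and Vps37a for Msh4, Scaf8 and Spdl1 for Msh5, Srsf12 and Rbm34 for Mlh3, and Pign and Zmym6 for Brca2, with rank correlations from 0.34 to 0.43, which in sparse counts is no finding.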
